A study of Homo sapiens with 288 samples.

Results

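Of the 9 contractile and cytoskeletal genes named for this account (ACTA2, TAGLN, MYL9, CNN1, CNN2, TPM1, TPM2, CALD1 and VIM), chosen by name, 8 were on a row of the tables of 17492 protein-coding genes and VIM was not analysed here. They were followed in single cells of endothelial (EC) and trophoblast-like (TB) type, both derived from the H1 human embryonic stem cell line. EC cells had been given 5 ng/ml BMP4 and 25 ng/ml Activin A in E8 medium for 2 days, then VEGF and WNT for 3 days. TB cells had been given 50 ng/ml BMP4 and SB431542, an inhibitor of the type I TGF-beta and activin receptors, in E7 medium, which is E8 without FGF2. Single cells were captured on the Fluidigm C1 and their full-length cDNA was stored, and the cDNA of the same 45 EC and 51 TB cells was made into libraries in 3 experiments, called EQ, EQ-Vary and EQ-75%. The cDNA input was set to one amount for all cells. In EQ-Vary the pooling volume was varied between cells, and EQ-75% repeated EQ with libraries of its own at a lower depth. Cells that met the study's limits on depth and on dominance by a few genes were used. EQ held 38 EC and 48 TB cells with 365570 to 3966801 counts each, EQ-Vary held 38 and 46, and EQ-75% held 39 and 50. The labels name no separate cultures. Each cell type in each experiment is thus 1 sample, so SDs are those between cells and there are no p-values.

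In smooth muscle and in the stress fibres of other cells, actin filaments slide along myosin, and the set of actin, tropomyosin and calponin proteins on the filament sets how they do so. Several of the genes, ACTA2, TAGLN and CNN1 above all, are textbook targets of serum response factor (SRF), which binds the CArG box in promoters and is switched on by its myocardin-family partners. The same genes are widely used as marks of smooth muscle, of myofibroblasts and of an epithelial to mesenchymal change.

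Before the levels, 2 promoters of the set are shown because the search for the CArG box turns on them. RefSeq promoter windows on GRCh38.p14, the 250 bases before an annotated start, were found for 6 of the genes, with 11 windows in all. TAGLN and MYL9 had none. The CArG box, searched on both strands, was in 1 of the 11 windows, against 1.16% of 35116 windows of all genes. It lay in the window of CNN2 at chr19:1026358-1026607 on the plus strand, with its first base 89 bases before the start (box in capitals). The window of the ACTA2 start that is also the start of its main transcript, chr10:88952774-88953023 on the minus strand, held no exact CArG box. The search took only CC, then 6 bases of A or T, then GG. This window holds ccctatatgg and ccttgtttgg, each 1 base off that pattern and left in lower case. Near matches were not searched for in any window. The ACTA2 window also held CATTCC, the core of the motif read by TEAD factors, on its reverse strand (capitals). These are matches of letters and say nothing of binding.
CNN2: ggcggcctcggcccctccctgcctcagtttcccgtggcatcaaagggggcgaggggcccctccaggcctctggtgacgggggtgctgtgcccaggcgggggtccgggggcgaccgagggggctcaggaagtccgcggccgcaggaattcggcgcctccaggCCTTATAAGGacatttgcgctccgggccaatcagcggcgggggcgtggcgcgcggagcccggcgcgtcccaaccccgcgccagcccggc
ACTA2: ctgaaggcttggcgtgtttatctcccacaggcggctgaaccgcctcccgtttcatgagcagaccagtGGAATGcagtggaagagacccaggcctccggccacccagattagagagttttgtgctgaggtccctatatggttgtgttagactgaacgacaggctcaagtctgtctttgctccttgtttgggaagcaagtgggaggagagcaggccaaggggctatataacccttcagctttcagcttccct
CATTCC was in 3 of the 11 windows, against 11.9% of all windows. The TATAAA box was in 1 of them, a start of CALD1 inside the gene, against 10.7%.

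All 8 genes had a higher mean level in TB than in EC in EQ, while the median of TPM2 was higher in EC. The share of all genes with a higher mean in TB was not computed. Levels are CPM, the counts of a gene per 1000000 counts of its cell. In TB, 4 of the 8 (ACTA2, TAGLN, CNN1 and TPM1) were at least 2-fold higher than in EC, and 27.2% of the 12751 genes that averaged 1 CPM or more in either type were. In EC, 0 of the 8 were at least 2-fold higher, against 19.7% of those genes. The counts were the same in EQ-Vary (4 against 27.3%, 0 against 20.1%) and in EQ-75% (4 against 28.1%, 0 against 18.9%), which remeasured the same cDNA and are no new cells. The median ratio of TB over EC was 2.48 for the 8 genes and 1.05 for all genes tested. TPM1 was the single gene of the 8 whose level in every TB cell was above that in every EC cell, a pattern shown by 0.11% of genes. The shares in EQ-Vary and EQ-75% were 0.118% and 0.0866%.

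**Figure D1:**
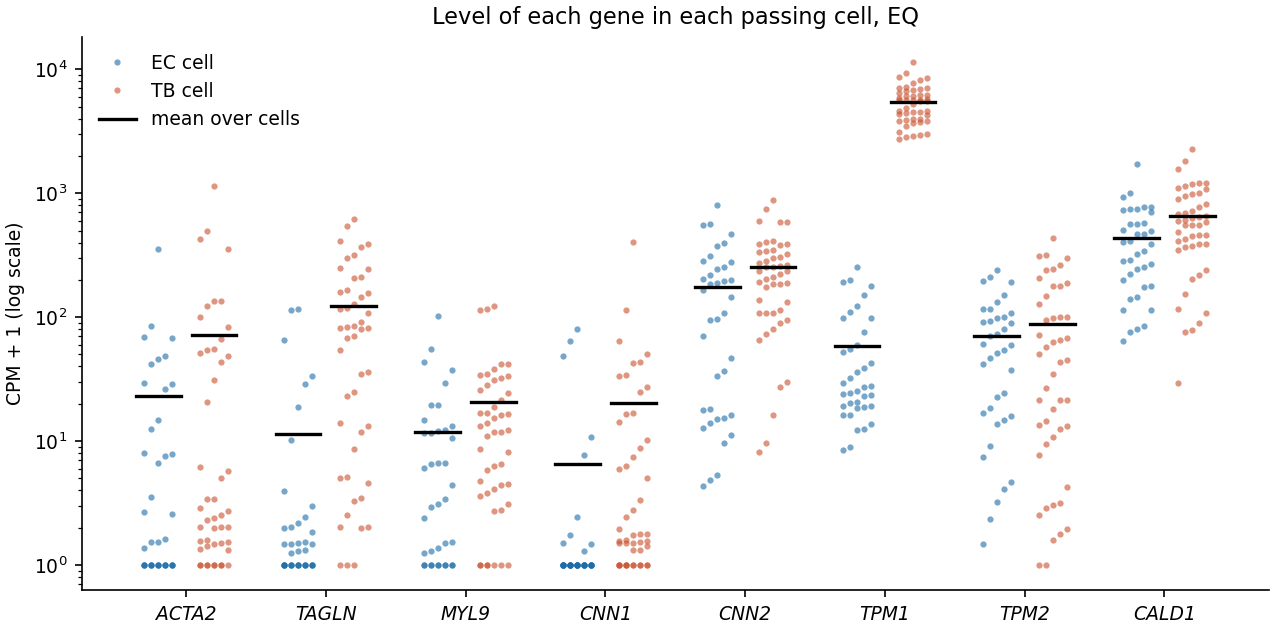
CPM plus 1 on a log scale of the 8 genes in each passing cell of EQ, with EC cells in blue, TB cells in orange and the mean over cells as a bar. The TPM1 points of the types do not overlap (at most 254 CPM in EC, at least 2747 in TB), while the points of the other genes do.

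TPM1 codes for a tropomyosin, the coiled-coil protein that lies along the actin filament and gates its contact with myosin. The gene lies at chr15:63042620-63071915 on the plus strand. Its level in EC cells was 7.51 CPM at the lowest, 26.5 at the median and 254 at the highest. In TB cells the lowest was 2747, the median 5584 and the highest 11462. The mean was 57.1 ± 62.5 CPM in EC (SD, n = 38) and 5449 ± 1896 in TB (SD, n = 48), a ratio of 95.4. No TB cell came near an EC cell: the gap between the highest EC and the lowest TB cell was wider than the whole EC range. The sums behind these means were 3909 counts in EC (95% Poisson interval 3787 to 4034) and 538791 in TB (537353 to 540232), and such intervals cover counting error only.

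EC and TB libraries were pooled on the same lanes, so the level of other TB genes in EC is given beside that of TPM1. VTCN1, a surface gene of TB cells, had a mean of 1142 CPM in TB and 3.64 in EC, and KDR, the VEGF receptor, had 1600 in EC and 4.27 in TB. Across EC cells, r of TPM1 with the total count was -0.37. The 7 EC libraries of EQ that missed the study's limits held 227 to 2803 CPM of TPM1, so the highest of them was above the lowest passing TB cell. What part of the EC counts came from other libraries was not tested. TPM1 was 97.3 times higher in TB than in EC in EQ-75% and 95.1 times higher in EQ-Vary.

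The other tropomyosin of the set did not move with TPM1. TPM2, at chr9:35681992-35690056 on the minus strand, codes for a second muscle tropomyosin that is also made in many other cells. Its levels ran from 0.465 CPM over a median of 55.9 to 238 in EC and from 0 over 43.1 to 435 in TB, and the types overlapped throughout. The ratio of the means, 87.5 ± 107 in TB (SD, n = 48) to 69.3 ± 63.8 in EC (SD, n = 38), was 1.26, while the medians stood in the opposite order. TPM3 and TPM4, tropomyosins of the cytoskeleton that were not among the 8, were lower in TB, with means of 746 ± 372 CPM in EC and 375 ± 213 in TB for TPM3 and 603 ± 335 and 367 ± 234 for TPM4.

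The make-up of the tropomyosin pool differed between the types. Here CPM was divided by the length of the main transcript in kilobases, and a share is a gene's part of the family total in 1 cell. TPM4 had the largest mean share in EC, at 51.2% ± 17.3 (SD, n = 38), followed by TPM3 at 25.1% ± 13.3, TPM2 at 12.02% ± 9.62 and TPM1 at 11.7% ± 14.1. In TB, TPM1 had 93.7% ± 3.87 (SD, n = 48), and its lowest share in any TB cell was 81.0%. The highest TPM1 share in an EC cell was 65.5%. TPM1 has many alternative exons, and with the union of its exons (9634 bases) in place of the main transcript (1217 bases) its mean share was 78.6% in TB and 3.51% in EC.

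**Figure D2:**
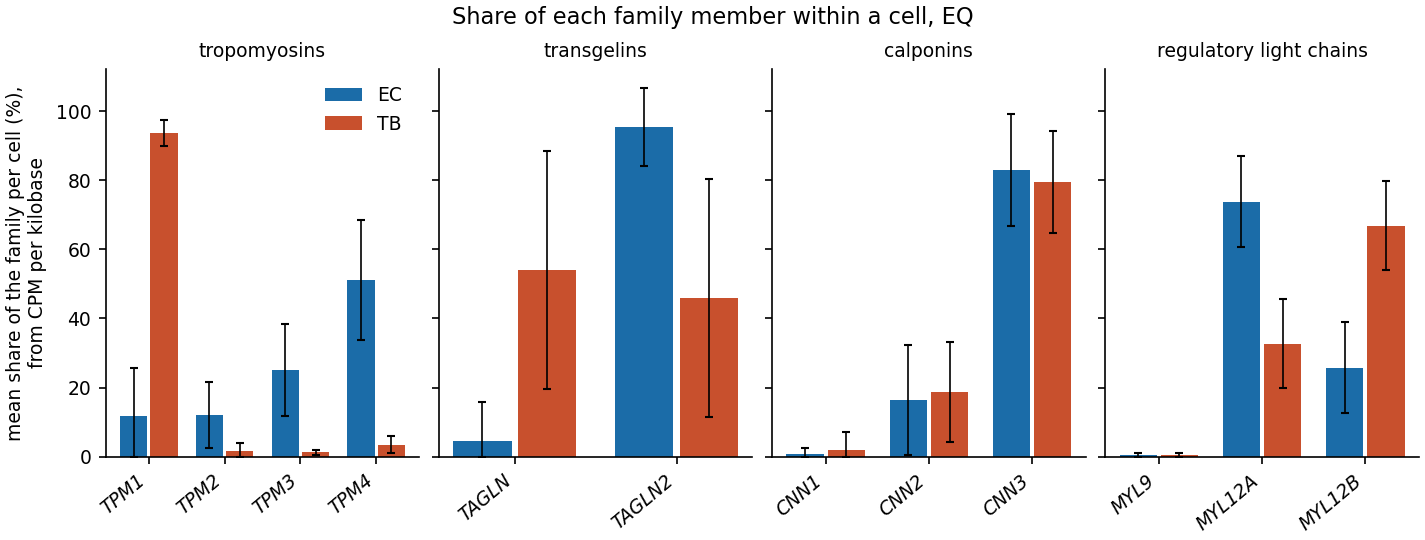
Mean share of each gene in its family per cell, in percent of the family's CPM per kilobase, in EC (blue) and TB (orange) of EQ, with SDs between cells as error bars, drawn no lower than 0. TPM1 takes 93.7% of the tropomyosins in TB and TPM4 51.2% in EC, and TAGLN and TAGLN2 are near balance in TB only by their means.

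TAGLN codes for transgelin (SM22), an actin-bundling protein that is among the earliest marks of smooth muscle. It lies at chr11:117199370-117207464 on the plus strand. In EC cells it ran from 0 over a median of 0.391 to 116 CPM, and in TB cells from 0 over 79.9 to 615. The means were 10.4 ± 27.7 CPM in EC (SD, n = 38) and 121 ± 149 in TB (SD, n = 48), a ratio of 11.7. At least 10 CPM was reached by 6 of 38 EC cells and 35 of 48 TB cells. In EC, the 5 highest cells held 89.7% of the TAGLN level summed over cells, and in TB they held 40.2%. Single counts are common: 57.9% of EC cells (exact 95% interval 40.8 to 73.7) and 93.8% of TB cells (82.8 to 98.7) had at least 1 count. After each cell was thinned to 500000 counts the shares were 29.7% of 37 EC cells and 89.1% of 46 TB cells. Cells with fewer counts than that were left out of the thinned shares.

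Part of TAGLN cannot be read apart from its neighbour. Of the exon bases of its main transcript, 59.0% overlap exons of PCSK7, a protease gene on the other strand, and the kit does not mark strand. PCSK7 itself was at 21.1 ± 53.2 CPM in EC and 30.6 ± 54.7 in TB, and its r with TAGLN was 0.17 over 38 EC cells and -0.04 over 48 TB cells.

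The paralog TAGLN2, the transgelin of non-muscle cells, went the other way, with 223 ± 274 CPM in EC and 44.3 ± 63.4 in TB. Per kilobase, TAGLN held a mean of 4.46% ± 11.3 of the pair in EC cells (median 0.0463%) and 54.1% ± 34.5 in TB cells. The TB share ran from 0% to 100%, so single TB cells held mostly the one, mostly the other, or both.

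ACTA2 codes for smooth muscle alpha-actin and lies at chr10:88935074-88991339 on the minus strand. Its level ran from 0 over a median of 1.10 to 352 CPM in EC and from 0 over 1.64 to 1137 in TB. The means were 22.2 ± 59.2 CPM (SD, n = 38) and 70.2 ± 189 (SD, n = 48), a ratio of 3.16. The medians were close, and the share of cells with at least 10 CPM was 31.6% in EC (12 of 38) and 35.4% in TB (17 of 48). The 5 highest cells held 73.1% of the summed level in EC and 75.2% in TB, and 1 TB cell held 33.7%. On the mean of log2(CPM + 1) ACTA2 was 0.71 lower in EC, which is under 2-fold.

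Among the actins of the same cells ACTA2 was a minor one, with a mean share per kilobase of 0.264% ± 0.561 in EC and 0.937% ± 2.47 in TB, and 13.3% in the highest TB cell. ACTB and ACTG1, the cytoplasmic actins, made up most of the pool in both types, with mean shares of 68.9% and 30.7% in EC and of 58.7% and 29.8% in TB. The striated-muscle actin ACTC1 was at 4.56 ± 3.44 CPM in EC and 1218 ± 2240 in TB, and its mean share in TB was 10.4% ± 10.6, or 16.4% ± 14.9 with the union of exons.

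The calponins bind actin and slow its myosin ATPase. CNN1, the smooth muscle form (chr19:11538767-11550323, plus strand), ran from 0 over a median of 0 to 79.0 CPM in EC and from 0 over 0.779 to 406 in TB. Its means of 5.51 ± 17.6 CPM and 19.3 ± 60.9 gave a ratio of 3.51, and the highest TB cell held 43.7% of the TB sum. It reached 10 CPM in 3 of 38 EC cells and 13 of 48 TB cells. CNN2, the form of blood and other non-muscle cells (chr19:1026586-1039068, plus strand), was present in every cell, from 3.34 over 125 to 796 CPM in EC and from 7.14 over 227 to 883 in TB. The ratio of its means, 252 ± 189 in TB to 174 ± 189 in EC, was 1.45, and the types overlapped. The calponin pool was alike in order in both types: CNN3 had the largest mean share (83.0% ± 16.1 in EC, 79.4% ± 14.7 in TB), then CNN2 (16.3% and 18.7%), then CNN1 (0.670% and 1.94%).

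MYL9 codes for the regulatory light chain of smooth muscle and non-muscle myosin, whose phosphorylation starts contraction, and lies at chr20:36541497-36551447 on the plus strand. Its levels ran from 0 over a median of 2.88 to 101 CPM in EC and from 0 over 11.04 to 123 in TB. The means, 10.9 ± 19.6 in EC and 19.6 ± 28.1 in TB, had a ratio of 1.81. MYL9 held 0.356% of the light chain pool per kilobase in EC and 0.416% in TB, or 0.562% and 0.632% with the union of exons. The rest was MYL12A and MYL12B, which stood in opposite order in the types, with 1051 ± 464 and 435 ± 272 CPM in EC and 491 ± 240 and 1202 ± 407 in TB. These paralogs share 7.93% and 6.47% of their 51-base words with each other, so their split is uncertain to that extent.

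CALD1 codes for caldesmon, which holds actin and myosin together and blocks their sliding at rest. It lies at chr7:134744252-134970729 on the plus strand and was present in every passing cell. Its level ran from 62.6 over a median of 366 to 1731 CPM in EC and from 28.7 over 568 to 2282 in TB. The means were 436 ± 337 and 653 ± 466 CPM, a ratio of 1.496, with wide overlap.

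Per kilobase of main transcript, the order of mean levels in EC was CALD1 (87.0), CNN2 (81.1), TPM2 (58.2), TPM1 (46.9), ACTA2 (16.5), MYL9 (3.90), CNN1 (3.67) and TAGLN (2.74). In TB it was TPM1 (4477), CALD1 (130), CNN2 (117), TPM2 (73.5), ACTA2 (52.0), TAGLN (31.9), CNN1 (12.9) and MYL9 (7.05). The means of neighbours in either order differed by less than the larger of their SDs between cells, except TPM1 and CALD1 in TB. With the union of exons, TPM1 was at 5.93 per kilobase in EC, below ACTA2 at 12.7, and at 566 in TB, still the first. TPM2 was then at 27.5 in EC, and at 34.8 in TB, below ACTA2 at 40.1.

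The second question was whether the genes rose and fell together from cell to cell within a type. Correlations are Pearson r of log2(CPM + 1) over the cells of 1 type, and the 28 pairs share their cells and genes. In TB, 10 of the 28 pairs had r of at least 0.3, against 4.35% of all pairs among genes that averaged 10 CPM or more, and the median r was 0.21 against 0.02. In EC, 1 of 28 pairs did, MYL9 with TPM2 (r = 0.32), against 6.01%, and the median was 0.05 against 0.03. The repeats gave 10 pairs (4.38% of all pairs) in EQ-Vary and 14 (4.06%) in EQ-75% for TB, and 1 pair (5.94%) and 2 pairs (5.62%) for EC. CNN1 was under 10 CPM in EC, where its sparse counts limit any r, and in EQ-75% so were TAGLN and MYL9. Both EC pairs of EQ-75%, TAGLN with CALD1 and MYL9 with TPM2, included one of these, and 0 of the 10 pairs in which both genes reached 10 CPM had r of at least 0.3. In TB, ACTA2 and CNN1 passed 10 CPM by their means, with medians of 1.64 and 0.779 CPM in EQ. Sparse counts limit their r there too. The difference between the types was not tested.

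**Figure D3:**
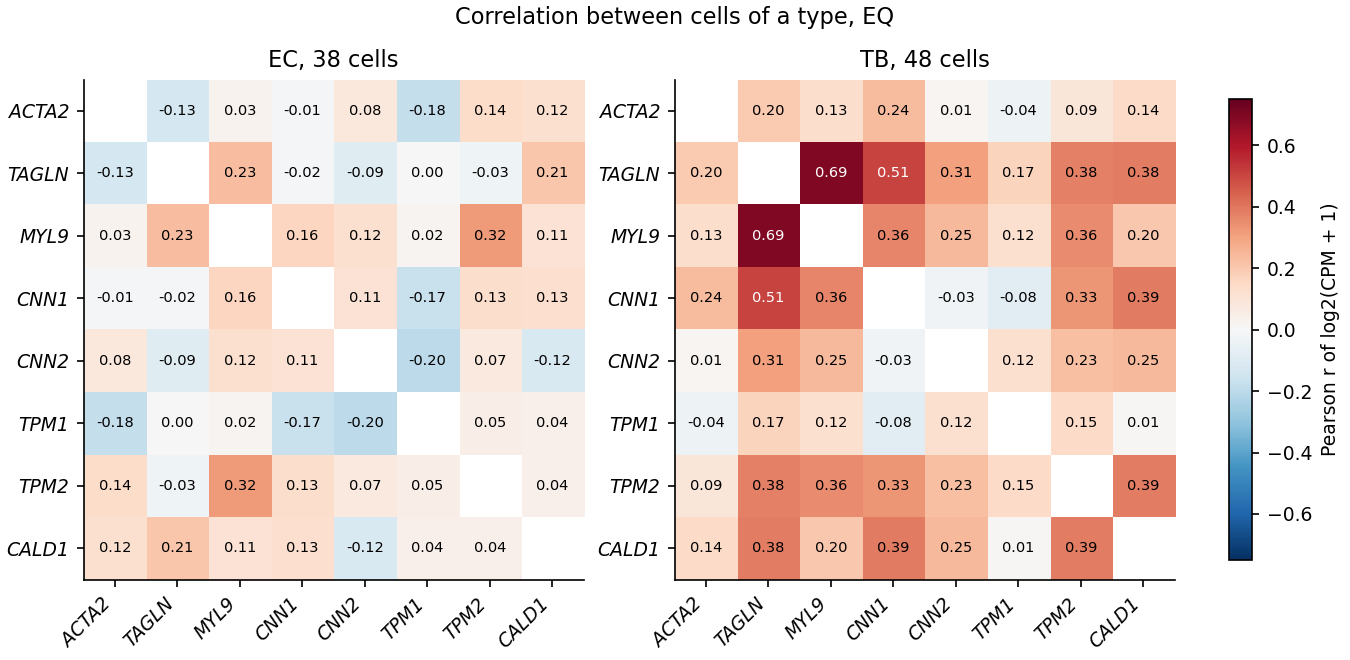
Pearson r of log2(CPM + 1) for each pair of the 8 genes over 38 EC cells (left) and 48 TB cells (right) of EQ, on a colour scale from blue (negative) to red (positive). In TB a block of TAGLN, MYL9, CNN1, TPM2 and CALD1 has r of 0.20 to 0.69, and ACTA2 and TPM1 lie between -0.08 and 0.24 with every other gene. In EQ-75%, not drawn, ACTA2 reached 0.36 with CNN1.

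The TB pairs centred on TAGLN. Its r with MYL9 was 0.69 (Spearman's rho 0.67), with CNN1 0.51, with CALD1 0.38, with TPM2 0.38 and with CNN2 0.31, over 48 cells. Without the 2 cells farthest from the TAGLN median, r with MYL9 was 0.70. It was 0.75 in EQ-Vary and 0.77 in EQ-75%. MYL9 with CNN1 (0.36) and with TPM2 (0.36), CNN1 with CALD1 (0.39) and with TPM2 (0.33), and TPM2 with CALD1 (0.39) completed the 10. In EQ, ACTA2 had r of at most 0.24 with any of the other genes in TB, and TPM1, the highest per kilobase, had at most 0.17. In the repeats these were higher: ACTA2 reached 0.29 with CNN1 and 0.28 with TAGLN in EQ-Vary, and 0.36 and 0.33 in EQ-75%, where TPM1 with TPM2 reached 0.30. These 3 were among the 14 TB pairs of EQ-75%. In EC, TAGLN with MYL9 had r of 0.23 and TAGLN with CNN1 -0.02.

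**Figure D4:**
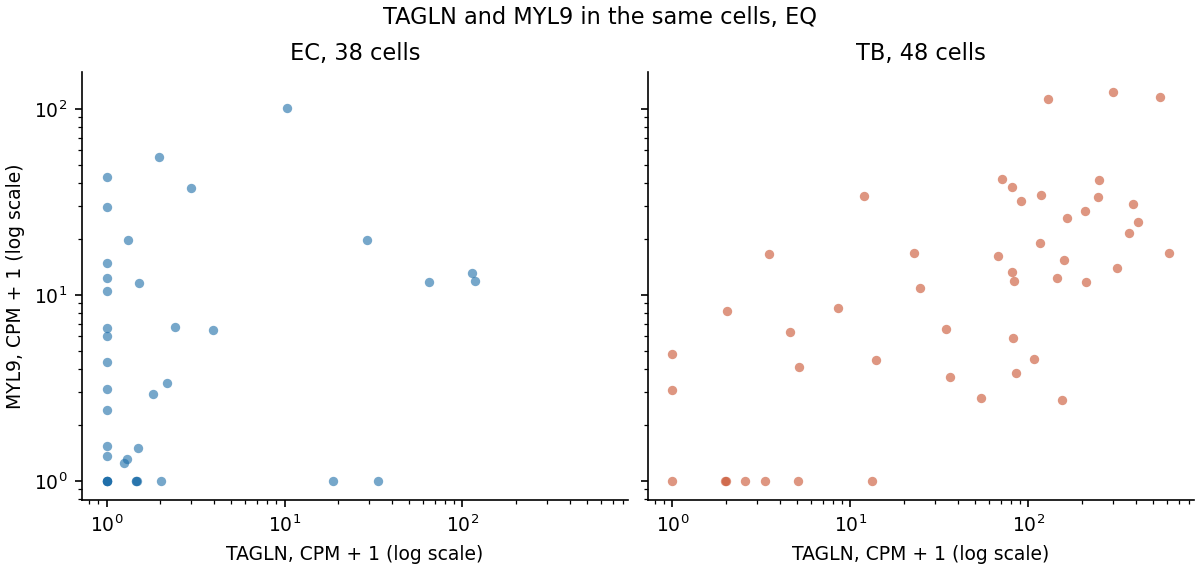
TAGLN against MYL9, both as CPM plus 1 on log scales, in each EC cell (left, n = 38) and TB cell (right, n = 48) of EQ. In TB the cells spread from the lower left to the upper right (r = 0.69), and in EC most cells lie at the left edge with little or no TAGLN (r = 0.23).

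In TB, r with the total count lay between -0.13 for ACTA2 and 0.27 for TPM1. With the number of genes detected it lay between 0.04 for CALD1 and 0.33 for TAGLN. The largest in EC were -0.37 for TPM1 with the total count and 0.45 for CNN2 with the number of genes detected. After the total count and the number of genes detected were regressed out, the median r was 0.21 in TB and 0.01 in EC, with 8 pairs and 1 pair at 0.3 or above. This adjustment was chosen after the data had been seen.

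The genes outside the set with the highest mean r to the 8 in TB were ADAM19 (0.42), NME4 (0.35), KRT18 (0.34), COTL1 (0.33) and LGALS3 (0.31), out of 8225 genes over 48 cells. ADAM19 is a membrane metalloprotease, KRT18 a keratin of simple epithelia, COTL1 an actin-binding protein and LGALS3 a galectin. In EQ-75% their mean r was 0.43, 0.34, 0.41, 0.36 and 0.34. In EC the highest were TMEM144 (0.24), WDR41 (0.22), MINK1 (0.22), SNRK (0.22) and ACTR6 (0.21), out of 7661 genes over 38 cells.

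For 7 of the 8 genes, the likest in TB were ADAM19 for TAGLN (r = 0.55), COTL1 for CALD1 (0.57), ACTG1 for CNN2 (0.58), SRPK1 for MYL9 (0.52), AURKAIP1 for TPM2 (0.57), ZNF420 for ACTA2 (0.63) and OGDH for TPM1 (0.52). The r of TAGLN with MYL9 was thus above that of either with any of the 8225 genes outside the set that were compared. Those genes averaged 10 CPM or more in TB and passed a limit on the share of cells with a count. In EQ-75% the 7 likest pairs had, in the same order, r of 0.55, 0.55, 0.60, 0.44, 0.54, 0.61 and 0.29. In EC, again for 7 of the 8, the likest were ZNF500 for CNN1 (0.77, but rho 0.64 with CNN1 in 10 of 38 cells), NELFE for MYL9 (0.64), ZC3HC1 for CNN2 (0.64), CALM3 for TPM2 (0.61), DUSP18 for TAGLN (0.60, but rho 0.33), VPS39 for ACTA2 (0.58) and ATP6AP1 for CALD1 (0.57). Each is the highest of many values over the cells of 1 sample and is given as a description.

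The cell labels were held against markers. Of all 12751 genes tested, 19.7% were at least 2-fold higher in EC and 27.2% in TB, and the list counts below stand beside these shares. Of 15 endothelial genes 15 were at least 2-fold higher in EC, with 632 to 10589 CPM summed in EC cells and 4.57 to 138 in TB cells. Of 11 trophoblast genes above 1 CPM 10 were at least 2-fold higher in TB, with 7.51 to 1015 CPM in EC cells and 933 to 4765 in TB cells. CDX2, an early trophoblast gene, was at 0 in EC and 0.348 CPM in TB. Of 9 epithelial genes 9 were higher in TB.

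Other smooth muscle and pericyte genes were called in both directions. Of 13 tested, 3 were at least 2-fold higher in EC, 3 in TB and 7 neither. These counts lie near the shares of all genes, 19.7% in EC and 27.2% in TB. The list median ratio of TB over EC was 0.970, against 1.05 for all genes tested. The EC ones were RGS5, a pericyte regulator of G proteins (794 ± 418 CPM in EC, 4.56 ± 10.2 in TB), MCAM, an adhesion molecule of vessels (299.9 ± 235, 5.28 ± 15.5), and SMTN, which codes for smoothelin (61.2 ± 70.2, 7.50 ± 18.6). The TB ones were MYOCD, the muscle coactivator of SRF (2.00 ± 11.5, 23.3 ± 62.0), SYNPO2 (10.2 ± 6.92, 21.3 ± 37.3) and LMOD1, listed at 0 in EC and at 5.14 ± 14.7 in TB. MYH11, the smooth muscle myosin heavy chain, was low in both, at 12.7 ± 24.2 and 6.45 ± 12.1.

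Mesenchymal genes lay on the EC side. Of 9 tested, 6 were at least 2-fold higher in EC and 0 in TB, against 19.7% and 27.2% of all genes. FN1 (fibronectin) had 1418 ± 1534 CPM in EC and 353 ± 322 in TB, THY1 had 708 ± 392 and 23.4 ± 55.0, and the repressors of epithelial genes ZEB2 and ZEB1 had 207 ± 213 and 95.4 ± 128 in EC against 0.945 ± 2.09 and 0.259 ± 0.817 in TB. The means of the 8 contractile genes were all higher in TB, 4 of them at least 2-fold, while the median of TPM2 was higher in EC. Of 6 pluripotency genes above 1 CPM, 3 were at least 2-fold higher in EC, 1 in TB and 2 neither. Of 15 paralogs of the 9 named genes, the counts were 4 in EC, 3 in TB and 8 neither. This list holds DES, NES and GFAP, paralogs of VIM, and NES and GFAP are among those in EC.

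Genes of the wider actomyosin machinery were called in both directions. Of 23 genes tested, 4 were at least 2-fold higher in EC, 5 in TB and 14 neither. These counts lie near the shares of all genes, 19.7% in EC and 27.2% in TB. ROCK1, a kinase that drives contraction (295 ± 336, 117 ± 115), and ZYX, zyxin of focal adhesions (168 ± 254, 48.04 ± 58.1), were higher in EC. PALLD, palladin of stress fibres (22.5 ± 55.5, 319 ± 210), MYH10, a non-muscle myosin heavy chain (351 ± 402, 717 ± 403), FLNA (21.4 ± 26.2, 59.4 ± 48.7) and FLNC (13.9 ± 32.9, 56.3 ± 90.0), filamins that crosslink actin, were higher in TB. MYLK, the kinase of the regulatory light chain, was not analysed here.

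Of 18 genes of SRF, its partners and its targets tested, 9 were at least 2-fold higher in TB, 1 in EC and 8 neither. The shares of all genes were 27.2% in TB and 19.7% in EC. The median ratio of TB over EC was 1.80 for this list. Of these 9, those with the highest CPM in TB were the immediate early genes FOS (42.6 ± 153 CPM in EC, 1062 ± 789 in TB) and EGR1 (46.7 ± 175, 1018 ± 545) and the matricellular genes CCN2 (0.816 ± 1.83, 248 ± 262) and CCN1 (26.1 ± 83.0, 202 ± 167). SRF itself had 16.3 ± 35.5 and 36.3 ± 65.2. The one higher in EC was FHL1 (9.10 ± 35.1, 2.01 ± 13.6). Of 10 TGF-beta response genes, 3 were at least 2-fold higher in EC, 3 in TB and 4 neither, against the same shares of all genes. TGFBI (33.01 ± 116, 390 ± 324), COL1A1 (21.8 ± 84.5, 280 ± 305) and CCN2 were the TB ones. LTBP2 (29.1 ± 117, 0.0789 ± 0.258), PMEPA1 (13.9 ± 72.2, 5.57 ± 20.9) and SKIL (13.3 ± 49.5, 5.12 ± 10.2) were the EC ones.

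Across TB cells the mean log2(CPM + 1) of the other list genes moved with TAGLN to differing degrees. Only list genes that averaged 1 CPM or more in TB entered that mean. The r of TAGLN was 0.50 with the list of paralogs, which includes those of VIM, and 0.41 with the actomyosin genes. It was 0.30 with the smooth muscle and pericyte genes, 0.24 with the SRF genes and -0.03 with the TGF-beta response genes. It was 0.05 with the epithelial and 0.11 with the trophoblast markers. TPM1 had its highest r, 0.38, with the epithelial markers.

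The same cDNA was measured again in EQ-75%, which allows a comparison within cells. In 37 EC and 47 TB cells that passed in both, the mean log2(CPM + 1) difference of EQ-75% minus EQ lay between -0.35 for CNN2 and 0.08 for CNN1 in EC, and between -0.31 for MYL9 and -0.01 for TPM1 in TB. CNN2 was lower in EQ-75% in 31 of 37 EC cells and TPM2 in 29. In TB, TAGLN was lower in 35 of 47 cells, CNN2 in 33 and MYL9 in 26, while CALD1 was higher in 26. The SD of the paired differences between cells ran up to 0.84, for ACTA2 in EC, and each mean difference was smaller than its SD. That SD is a spread between cells and not the error of a mean. The r of a gene between the experiments over cells was 0.93 for TAGLN and 0.94 for ACTA2 in EC, and 0.99 for TAGLN, 0.98 for ACTA2 and 0.99 for TPM1 in TB. By rank, TAGLN in EC was less alike, with rho of 0.53, while ACTA2 in EC had rho of 0.85. TAGLN had a count in 21 EC cells in EQ and in 14 in EQ-75%, with 10 cells in common. Its r in EC thus rests on a few high cells. The 16 TB cells with at least 10 CPM of ACTA2 in EQ were also the 16 in EQ-75%.

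**Figure D5:**
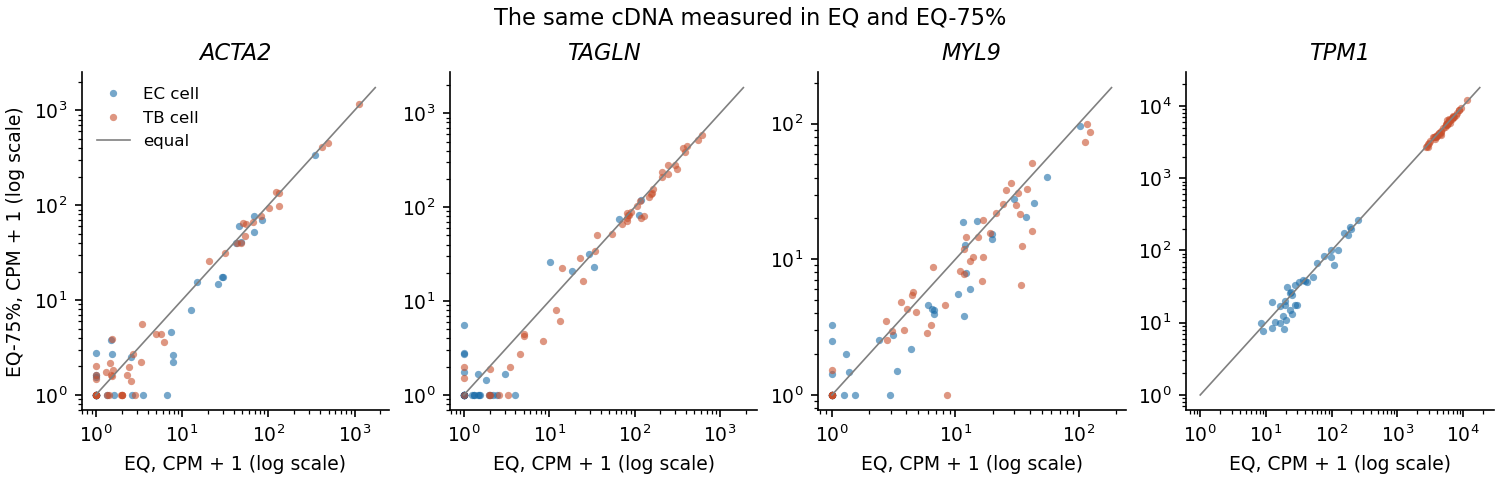
CPM plus 1 of ACTA2, TAGLN, MYL9 and TPM1 in EQ (x axis) and EQ-75% (y axis), both log scales, for each cell that passed in both, EC in blue and TB in orange, with the line of equal values. TPM1 lies close to the line in TB, while MYL9 scatters more: 25 TB cells had at least 10 CPM of it in EQ and 19 in EQ-75%.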

How the data were processed

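Deposited expected counts of 17492 genes, all protein-coding, were analysed in 288 libraries from 3 experiments. Per the methods, the authors trimmed reads to 51 bases, aligned them to GRCh38 Ensembl genes with Bowtie 1.2.3 (2 mismatches at most) and ran RSEM 1.2.31. The expected counts deposited by the authors were not normalized. Cells with visible doublets had been removed by the authors on images. Of the sample columns, 0 were left unused, and unEQ libraries were not analysed here.

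Cell types, experiments and cell numbers came from the labels. Counts were rounded, cells with a log10 total count under 5.4 or over 31% of counts in the top 50 genes were left out, and CPM was computed over all genes. The experiments share cDNA, so differences between them were taken within cells. This pairing was checked: same-numbered cells had deviations from their type mean that correlated at 0.845 or more. Median totals of passing cells were 1499284 to 2025145, so 1 count is about 0.5 CPM. Poisson and Clopper-Pearson intervals (95%) cover counting error only. The ratios, correlations and thinning were tested on simulated data.

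The genes named were the 8 members, up to 4 genes of each list in each direction by mean CPM, and the likest genes by r, plus genes on which a result turns. The likest gene of CNN1 in TB and of TPM1 in EC is not reported here. The members and lists were chosen with earlier results of these data known. Alternatives are given in the closing section. Gene positions were from GENCODE on GRCh38. Tools were Python 3.11.15, numpy 2.4.6, pandas 2.3.3, scipy 1.17.1, and R 4.3.3 with scran 1.30.0 and edgeR 4.0.16, used for size factors only.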

Additional observations from a re-analysis of the deposited data

Results flagged for a closer look

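Cells that missed the study's limits held higher levels of some of the genes than any passing EC cell of EQ. TPM1 was at 1403 CPM in EC cell 1, 1202 in EC cell 14, 2803 in EC cell 41, 968 in EC cell 42, 255 in EC cell 44 and 267 in EC cell 45. TPM2 was at 431 CPM in EC cell 41 and CALD1 at 1980 in EC cell 45. EC cells 1, 14 and 41 had 11418, 13324 and 13967 counts in all, so that their TPM1 values rest on 16, 16 and 39 counts.

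The same cDNA gave other values where it was sequenced more deeply. In EQ-75%, TPM1 was at 115 CPM in EC cell 1 and 25.4 in EC cell 14, and at 95.2 in EC cell 41, where the library held 231125 counts. The reverse held for EC cell 29, with 54.1 CPM in EQ and 2185 in EQ-75%, where its library held 5954 counts. EC cell 42 differed from these, since its TPM1 level was 968, 1134 and 1315 CPM in the 3 experiments over 152153 counts or more. The near-empty EC libraries of EQ also held trophoblast markers at 934 to 1428 CPM summed, against a median of 152 in passing EC cells. The part of other libraries of the lane in these values was not tested.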

How the results depend on the processing

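Of 331 alternative values, 298 stayed within the limits set for a change. These limits are wide: for a ratio, a shift of the mean SD of log2(CPM + 1) between cells. For a ratio under 2-fold, a change of sign alone was not counted. Of 80 alternatives for the share of cells with a count, 25 went beyond the limit, and of 95 for ratios 3 did. The count of genes at least 2-fold higher in TB was 4 or 5 under every alternative but a ratio limit of 4, which left 2 (TAGLN and TPM1), and 0 genes were at least 2-fold higher in EC under each. The number of EC pairs with r of at least 0.3, 1 in EQ, was 2 in EQ-75%, 0 with all cells and 0 after thinning to 500000 counts. In TB that number ran from 7 after thinning to 14 in EQ-75%. Thinning left out cells with fewer than 500000 counts.

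The genes behind these counts changed: MYL9 passed 2-fold by medians (-1.94 on the log2 scale, EC over TB), by the mean of log2(CPM + 1) (-1.09), by summed counts (-1.08) and without the highest cell (-1.05), and CNN2 by the mean of log2(CPM + 1) (-1.19).

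On the same scale, TPM1 was -6.58, -4.71 with all cells, -7.72 by medians and -7.29 after 0.5% of the other type's mean was subtracted, an alternative chosen after the data were seen. TAGLN was -3.54, and -7.68 by medians. TPM2, -0.34 by means, was 0.37 by medians and 0.30 by the mean of log2(CPM + 1). ACTA2, -1.66 by means, was -0.57 by medians and -0.71 by the mean of log2(CPM + 1), under 2-fold in both. CNN1 had no ratio by medians, since its EC median was 0. Shares of cells with a count moved most at the low genes, such as CNN1 in TB, 75.0% at 1 count and 27.1% at 10 CPM.

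The differences of EQ-75% minus EQ were taken in pairs of the same cell. With no replicate block they ran from -0.31 for CNN2 to 0.05 for CNN1 in EC, and from -0.19 for MYL9 to -0.03 for CNN2 in TB, each within 1 SD of the paired value. Depth limits ACTA2, TAGLN, MYL9 and CNN1 in EC, whose median cell held under 3 CPM.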
